A study of Arabidopsis thaliana with 4 samples.

Results

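The genes described here are the 38 nuclear genes of Arabidopsis thaliana for proteins of the plastid ribosome, out of 27416 gene models measured. They were chosen by locus identifier and not by measured values, though with earlier results of these data known. The group holds 9 genes for proteins of the small subunit (PRPS), 24 for the large subunit (PRPL) and 5 for plastid-specific ribosomal proteins (PSRP). All 38 lie on the nuclear chromosomes, with 12, 5, 11, 2 and 8 genes on chromosomes 1, 2, 3, 4 and 5 of the TAIR10.1 assembly. All 38 passed the minimum level used below. The seedlings were wild type of the Col-0 accession. Seeds on 1/2 MS plates with 1% sucrose had 4 days in the cold at 4 °C and then white light for 12 h. Red-light seedlings then received 60 μmol per square metre per second of red light for 4 days, and dark seedlings spent the same 4 days without light. Growth time was given as 4.5 days in each condition. Poly(A) RNA of whole seedlings was sequenced to find genes that respond to red light.

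Plastids keep a ribosome of bacterial type that translates the proteins still encoded in the plastid genome, among them core subunits of the photosystems and the large subunit of Rubisco. Some of its proteins are encoded in the plastid itself and the others in the nucleus, from where they are imported after translation in the cytosol. The plastid-specific proteins have no counterpart in the ribosome of Escherichia coli. In germinating seedlings the plastids of dark-grown cotyledons are etioplasts, which turn into chloroplasts in light.

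Each condition was deposited as 1 column, although the labels list 2 replicates for each, so no difference below has a replicate check or a p-value. The columns held 33521717 reads in red light and 41106535 in darkness. Levels are RPKM, reads scaled by coding length and by the total reads of the column. A gene was called higher or lower at a 2-fold difference of RPKM + 1, that is a log2 change of at least 1 in size, where the higher of its levels was 10 RPKM or more. Ratios are of RPKM without the added 1, and each carries an exact 95% interval (Clopper-Pearson) that covers counting error only, since the reads carry no molecular identifiers and are not independent molecules. The material fitted its labels at the genes checked. LHCB2.2, a light-harvesting chlorophyll-binding protein, stood at 3015 RPKM in red light and 85.4 in darkness, and ELIP1, a light-induced thylakoid protein, at 2333 in red light and 33.5 in darkness. PORA, the etioplast protochlorophyllide reductase, stood at 55.6 RPKM in red light and 878 in darkness, and PHYA, the far-red photoreceptor, at 159 in red light and 601 in darkness. In such bulk samples fewer cells of a type and less RNA per cell cannot be told apart.

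The plastid ribosomal protein genes were a little higher in red light as a group, and only a pair of them passed the 2-fold rule. PSRP3/1 and PSRP6, both plastid-specific, rose, none fell, and 36 of the 38 were not called. Among the 12625 genes of at least 10 RPKM in either column, 8.69% were called higher and 5.35% lower. The ratio of red light over dark was above 1 for 33 of the 38 genes, or 86.8%, against 41.2% of all genes tested. Their median log2 change was 0.29, a median ratio of 1.22, where the median over all genes tested was -0.11, a ratio of 0.925. The counting interval lay wholly above 1 in 30 of the 38 and wholly below 1 in 4. Of the 12625 genes tested, it lay wholly above 1 in 4108 and wholly below 1 in 6183. At a lower threshold of 1.5-fold, 10 of the 38 (26.3%) were higher and 1 (2.63%) lower, against 15.1% and 15.3% of all genes tested.

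**Figure D1:**
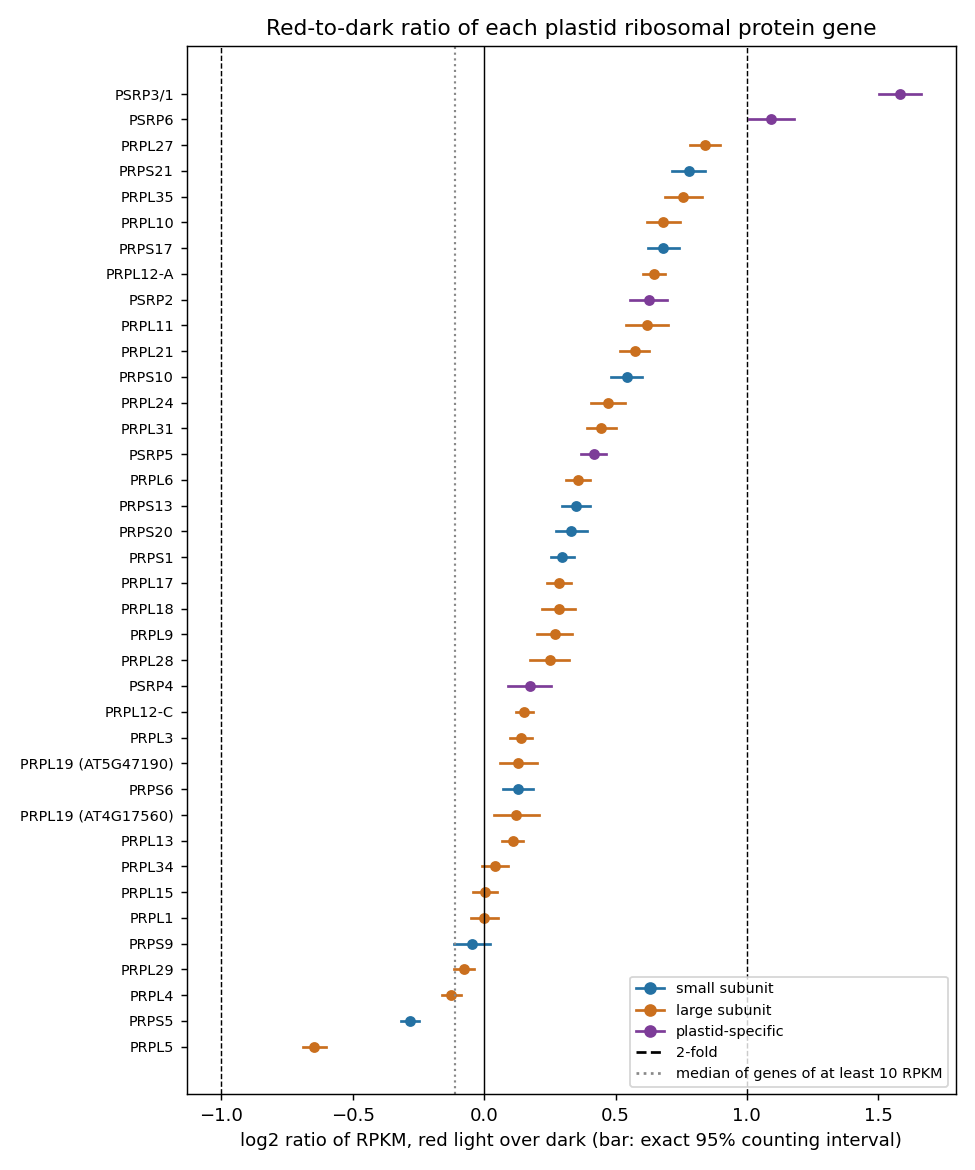
Log2 ratio of RPKM, red light over dark, for each of the 38 genes, ordered by size and coloured by class, with bars for the exact 95% counting interval, dashed lines at 2-fold and a dotted line at the median of all genes of at least 10 RPKM. PSRP3/1 and PSRP6 lie beyond the line for 2-fold higher, 33 genes lie right of 0, and PRPL5 is the lowest at a ratio of 0.639.

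Set side by side with other abundant genes, the group moved little and mostly in 1 direction. A minimum mean level of 80 RPKM, chosen to lie just under the least abundant of the 38, left 2399 other genes. Across the 38 genes the log2 changes had an SD of 0.40, against 1.03 across these 2399, whose changes ran from -5.32 to 6.25. The interquartile ranges were closer, at 0.48 for the 38 and 0.72 for the 2399. The 2399 genes had a median log2 change of -0.14, and 38.5% of them had a ratio above 1. Of them, 253 were called higher and 209 lower. Summed over the 38 genes, 228353 reads made up 0.681% of all reads in red light and 238086 reads made up 0.579% in darkness. The ratio of these shares was 1.18 (1.17 to 1.18), and it was 1.15 (1.15 to 1.16) without PSRP3/1 and PSRP6.

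**Figure D2:**
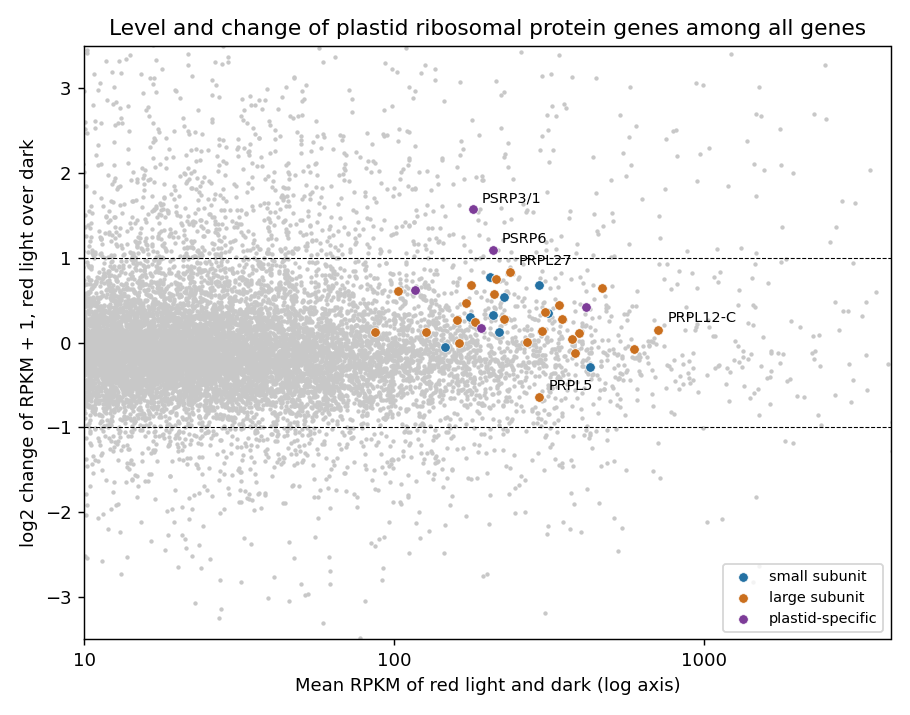
Log2 change of RPKM + 1, red light over dark, against mean RPKM of both columns on a log axis, for all genes of at least 10 RPKM within the plotted range (grey; 760 genes lie outside it) and for the 38 plastid ribosomal protein genes (coloured by class). The coloured points sit at high mean levels, mostly just above 0, with PSRP3/1 and PSRP6 above the dashed 2-fold line.

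PSRP3/1 and PSRP6 are shown first because they are the called genes, and PRPL5 with them because it lay at the other end of the order. The letters are the 250 bases before the annotated gene start, 5′ to 3′ on the strand of the gene, from the RefSeq TAIR10.1 genome. Capitals mark the motifs GATAA and TGGGC, read on either strand, so that they appear also as TTATC and GCCCA. The PSRP3/1 stretch is chr1:25758412-25758661 on the minus strand, the PSRP6 stretch is chr5:5907339-5907588 on the plus strand, and the PRPL5 stretch is chr4:545567-545816 on the minus strand, where its far end overlaps the neighbouring gene ATSTE24 by 21 bases.
PSRP3/1: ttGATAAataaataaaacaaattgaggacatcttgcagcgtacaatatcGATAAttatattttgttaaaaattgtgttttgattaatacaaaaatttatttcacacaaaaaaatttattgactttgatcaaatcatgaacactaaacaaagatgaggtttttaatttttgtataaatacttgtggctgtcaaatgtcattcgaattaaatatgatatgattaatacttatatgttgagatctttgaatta
PSRP6: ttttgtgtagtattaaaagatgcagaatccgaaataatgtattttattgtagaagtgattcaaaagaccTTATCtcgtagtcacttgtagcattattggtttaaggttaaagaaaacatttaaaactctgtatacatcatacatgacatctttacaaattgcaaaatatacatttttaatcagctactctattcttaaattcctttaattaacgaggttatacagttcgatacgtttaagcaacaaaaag
PRPL5: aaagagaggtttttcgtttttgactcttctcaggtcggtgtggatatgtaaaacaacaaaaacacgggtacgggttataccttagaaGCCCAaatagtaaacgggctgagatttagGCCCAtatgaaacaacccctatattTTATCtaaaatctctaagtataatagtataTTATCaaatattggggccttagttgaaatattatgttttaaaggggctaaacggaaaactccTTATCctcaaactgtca
There were 2 matches to GATAA before PSRP3/1, 1 before PSRP6 and 3 before PRPL5, and 2 matches to TGGGC before PRPL5. The PSRP3/1 stretch was 22.4% G and C, the PSRP6 stretch 27.6% and the PRPL5 stretch 35.6%.

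The 5 plastid-specific genes had the highest median change of the 3 classes, a median log2 change of 0.62. They were PSRP2, PSRP3/1, PSRP4, PSRP5 and PSRP6. A relative outside the 38, AT5G24490, annotated as a 30S ribosomal protein, had a ratio of 0.149 and is described last. All 5 plastid-specific genes had ratios above 1 and 3 of them were at least 1.5-fold higher, 2 of which passed the 2-fold rule. Together they held 20713 reads in red light and 15646 in darkness, a ratio of shares of 1.62 (1.59 to 1.66). PSRP3/1 (AT1G68590, chr1:25757404-25758411, minus strand, 2 exons), the small-subunit protein annotated as PSRP-3/Ycf65, had 4510 reads and 268.5 RPKM in red light, against 1847 reads and 89.7 RPKM in darkness. This was a 2.99-fold rise (2.84 to 3.16), and it took the gene to rank 18 of 38 by level in red light, against rank 36 in darkness. PSRP6 (AT5G17870, chr5:5907589-5908464, plus strand, 1 exon), a small protein of the large subunit, had 3048 reads and 283 RPKM in red light, against 1753 reads and 133 RPKM in darkness. It rose 2.13-fold (2.01 to 2.26), to rank 16 in red light, against rank 33 in darkness. Both genes were thus among the least abundant of the 38 in darkness and near the middle in red light.

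The other plastid-specific genes were not called. PSRP2 (AT3G52150), an RNA-binding protein with RRM domains, had 3626 reads and 142 RPKM in red light, against 2882 reads and 92.0 RPKM in darkness, a ratio of 1.54 (1.47 to 1.62). PSRP5 (AT3G56910), a large-subunit protein and the most abundant of the class, had 7120 reads and 475 RPKM in red light, against 6543 reads and 356 RPKM in darkness, a ratio of 1.33 (1.29 to 1.38). PSRP4 (AT2G38140), a small-subunit protein, had 2409 reads and 201 RPKM in red light, against 2621 reads and 179 RPKM in darkness, a ratio of 1.13 (1.07 to 1.19). The order of the 5 by level therefore differed between conditions, with PSRP5, PSRP6, PSRP3/1, PSRP4 and PSRP2 from high to low in red light and PSRP5, PSRP4, PSRP6, PSRP2 and PSRP3/1 in darkness.

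**Figure D3:**
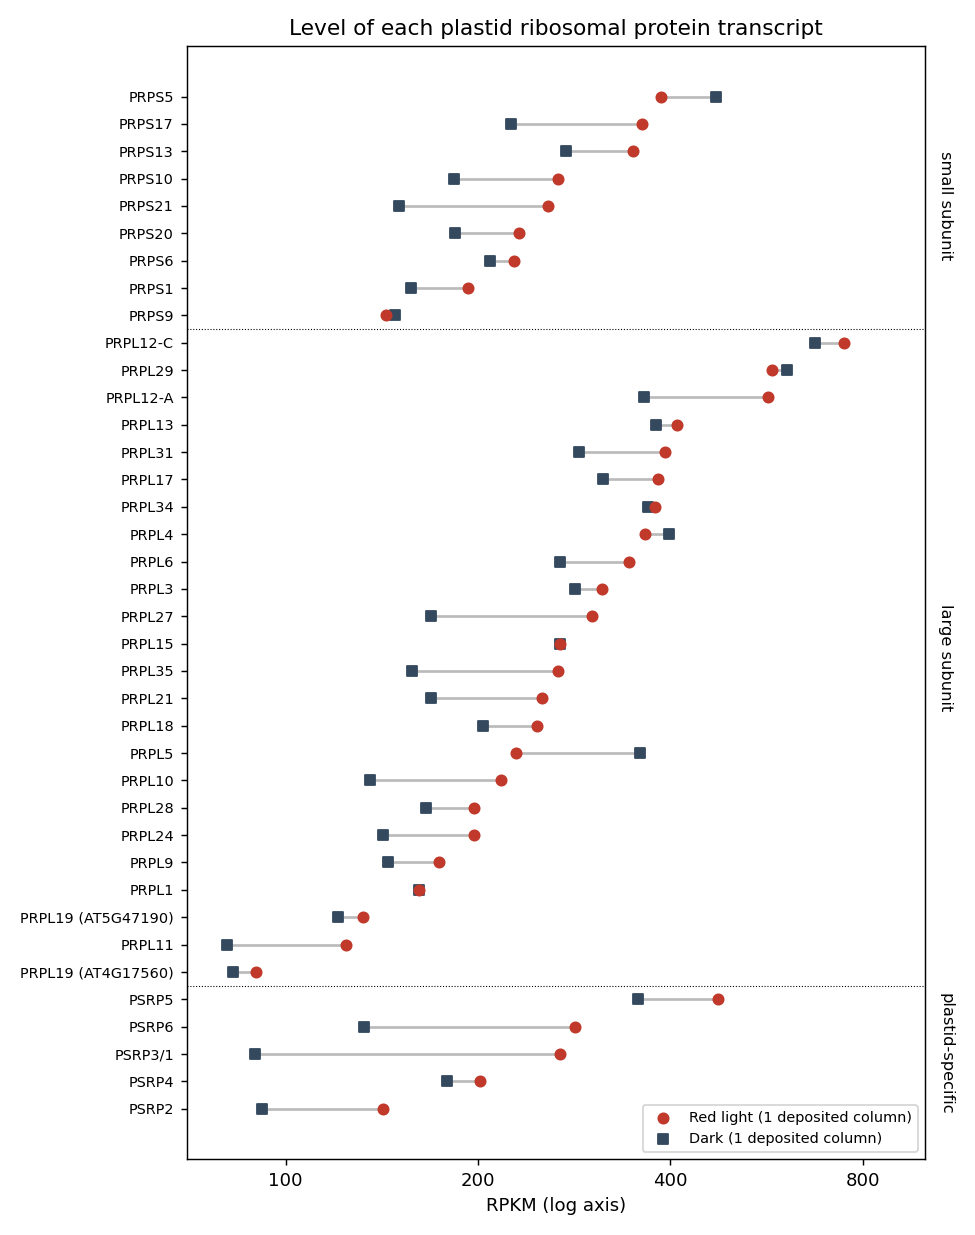
RPKM in red light (red circles) and in darkness (dark squares) on a log axis for each of the 38 genes, 1 deposited column per condition, grouped by class and ordered by level in red light. PRPL12-C is the most abundant in both columns at 748 RPKM in red light and 672 in darkness, and the widest gap is that of PSRP3/1.

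Of the 9 small-subunit genes, none was called, 7 had ratios above 1, and their median log2 change was 0.33. Their levels ran from 143 to 387 RPKM in red light and from 148 to 471 RPKM in darkness. PRPS21 (AT3G27160), whose bacterial counterpart acts in translation initiation, had 4767 reads and 258 RPKM in red light, against 3409 reads and 150 RPKM in darkness, a ratio of 1.71 (1.64 to 1.79). PRPS17 (AT1G79850), counterpart of a protein that binds ribosomal RNA early in assembly of the E. coli small subunit, had 5456 reads and 362 RPKM in red light, against 4170 reads and 225 RPKM in darkness, a ratio of 1.60 (1.54 to 1.67). These were the small-subunit genes that reached 1.5-fold.

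The most abundant small-subunit gene went the other way. PRPS5 (AT2G33800), whose bacterial counterpart affects decoding accuracy, had 11833 reads and 387 RPKM in red light, against 17658 reads and 471 RPKM in darkness, a ratio of 0.822 (0.803 to 0.841). PRPS9 (AT1G74970), whose E. coli counterpart reaches the tRNA in the P site, had 3015 reads and 143 RPKM in red light, against 3820 reads and 148 RPKM in darkness, a ratio of 0.968 with an interval that includes 1 (0.922 to 1.02). PRPS13 (AT5G14320), another protein of the subunit head in bacteria, had 5978 reads and 350 RPKM in red light, against 5751 reads and 274 RPKM in darkness, a ratio of 1.27 (1.23 to 1.32). PRPS10, PRPS20, PRPS1 and PRPS6 had ratios of 1.46, 1.26, 1.23 and 1.09. PRPS1 (AT5G30510), the counterpart of the bacterial protein that binds messenger RNA, has the longest coding sequence of the 38 at 1251 bases and stood at 193 RPKM in red light and 157 in darkness.

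Of the 24 large-subunit genes, none was called, 21 had ratios above 1, and their median log2 change was 0.26. They held 153834 reads in red light and 165252 in darkness, a ratio of shares of 1.14 (1.13 to 1.15), and 5 were at least 1.5-fold higher and 1 at least 1.5-fold lower. PRPL27 (AT5G40950), whose bacterial counterpart reaches the peptidyl transferase centre, was the highest of them, with 6039 reads and 302 RPKM in red light, against 4138 reads and 169 RPKM in darkness, a ratio of 1.79 (1.72 to 1.86). PRPL35 (AT2G24090), a short protein of the class, had 3915 reads and 267 RPKM in red light, against 2840 reads and 158 RPKM in darkness, a ratio of 1.69 (1.61 to 1.77). PRPL27 was the uncalled gene closest to the threshold among the 38, at a log2 change of 0.84.

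The proteins of the ribosomal stalk, which in bacteria recruits and stimulates the elongation factors, were all above 1 but to different extents. PRPL10 (AT5G13510), which anchors the L12 proteins in bacteria, had 4837 reads and 218 RPKM in red light, against 3696 reads and 136 RPKM in darkness, a ratio of 1.60 (1.54 to 1.68). PRPL11 (AT1G32990), at the base of the stalk, had 2791 reads and 124 RPKM in red light, against 2227 reads and 81.0 RPKM in darkness, a ratio of 1.54 (1.45 to 1.63). PRPL12-A (AT3G27830) had 10996 reads and 569 RPKM in red light, against 8613 reads and 364 RPKM in darkness, a ratio of 1.57 (1.52 to 1.61). PRPL12-C (AT3G27850), the most abundant of the 38 in both columns, had 14134 reads and 748 RPKM in red light, against 15590 reads and 672 RPKM in darkness, a ratio of 1.11 (1.09 to 1.14).

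PRPL12-A (chr3:10318455-10319920) and PRPL12-C (chr3:10324788-10325746) lie close together on the plus strand, each with 1 exon, and their reads cannot be divided with certainty. Their coding sequences are 93.4% identical, at 527 of 564 aligned bases, with 1 identical run of 255 bases. Of their coding words of 31 bases, 50.7% of PRPL12-A and 51.9% of PRPL12-C occur in another gene. Much of the difference lies near the start of the coding sequence, as in the stretch from coding base 26 to coding base 115, where capitals mark the 20 bases that differ between the copies.
PRPL12-A: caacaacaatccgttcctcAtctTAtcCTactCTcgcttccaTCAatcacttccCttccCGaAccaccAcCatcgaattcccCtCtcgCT
PRPL12-C: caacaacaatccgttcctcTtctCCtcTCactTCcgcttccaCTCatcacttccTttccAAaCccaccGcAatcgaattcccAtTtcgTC
The copies also share a run of 75 bases before their gene starts, shown in capitals in the 250 bases before each start on the plus strand of TAIR10.1, at chr3:10318205-10318454 for PRPL12-A and chr3:10324538-10324787 for PRPL12-C. The run lies 195 to 121 bases before the PRPL12-A start and 151 to 77 bases before the PRPL12-C start, and each covers an annotated tRNA gene of 72 bases on the same strand (AT3G27825 and AT3G27845).
PRPL12-A: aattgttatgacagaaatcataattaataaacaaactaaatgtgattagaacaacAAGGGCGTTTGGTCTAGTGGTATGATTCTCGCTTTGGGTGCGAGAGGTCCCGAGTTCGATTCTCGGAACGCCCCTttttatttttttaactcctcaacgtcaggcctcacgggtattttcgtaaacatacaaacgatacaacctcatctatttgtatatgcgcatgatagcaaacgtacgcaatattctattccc
PRPL12-C: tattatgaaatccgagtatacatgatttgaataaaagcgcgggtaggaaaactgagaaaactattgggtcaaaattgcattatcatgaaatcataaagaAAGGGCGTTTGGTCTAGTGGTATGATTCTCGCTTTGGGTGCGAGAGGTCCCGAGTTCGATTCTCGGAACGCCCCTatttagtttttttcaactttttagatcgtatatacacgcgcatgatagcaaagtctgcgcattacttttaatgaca
The pair was also taken as a sum, which does not depend on how shared reads were split between the copies. It would depend on whether such reads were left out or counted for both genes, which is not known. The pair had 25130 reads in red light and 24203 in darkness. The summed level was 1317 RPKM in red light and 1036 in darkness, a ratio of shares of 1.27 (1.25 to 1.30). PRPL12-A made up 43.2% of the summed level in red light and 35.1% in darkness. The sum was 4.92 times the median level of 20 other large-subunit genes in red light and 4.39 times in darkness. L12 is known in E. coli as the ribosomal protein present in several copies per ribosome. Another gene of the family, PRPL12-B (AT3G27840), is listed at 0 reads in both columns; its coding sequence is 77.8% identical to that of PRPL12-A.

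The large-subunit gene with the lowest ratio was PRPL5 (AT4G01310, chr4:543911-545566, minus strand, 4 exons). It encodes the counterpart of a bacterial protein that binds the small ribosomal RNA of the central protuberance. It had 6059 reads and 229 RPKM in red light, against 11630 reads and 359 RPKM in darkness, a ratio of 0.639 (0.619 to 0.659). It was not called at 2-fold, with a log2 change of -0.64, and was the 1 gene of the 38 past 1.5-fold in this direction. By level it ranked 25 of 38 in red light, against 8 in darkness. PRPL18 (AT1G48350), whose bacterial counterpart binds the same RNA, stood at 248 RPKM in red light and 203 in darkness, a ratio of 1.22 (1.17 to 1.27), so these neighbours in the bacterial ribosome had ratios on opposite sides of 1.

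PRPL4 and PRPL29 were below 1 by a smaller margin. PRPL4 (AT1G07320), which lines the peptide exit tunnel in bacteria, had 10399 reads and 365 RPKM in red light, against 13906 reads and 398 RPKM in darkness, a ratio of 0.917 (0.894 to 0.941). PRPL29 (AT5G65220), which sits at the tunnel exit in bacteria, had 10094 reads and 577 RPKM in red light, against 13052 reads and 608 RPKM in darkness, a ratio of 0.948 (0.924 to 0.973). PRPL29 ranked second only to PRPL12-C in both columns. In 3 further genes the interval included 1. PRPL34 (AT1G29070) had 6021 reads and 379 RPKM in red light, against 7183 reads and 369 RPKM in darkness, a ratio of 1.03 (0.993 to 1.06). PRPL15 (AT3G25920) had 7519 reads and 269 RPKM in red light, against 9201 reads and 268 RPKM in darkness, a ratio of 1.00 (0.972 to 1.03). PRPL1 (AT3G63490), which in bacteria forms the stalk beside the exit site for tRNA, had 5654 reads and 162 RPKM in red light, against 6931 reads and 162 RPKM in darkness, a ratio of 1.00 (0.966 to 1.04). The intervals given here hold for scaling by total reads and leave out spread between replicates. Other scalings shifted all log2 changes by up to 0.07, so which intervals include 1 depends on the scaling.

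The PRPL19 protein is encoded by a pair of genes with 82.6% identical coding sequences, and both were close to even. AT5G47190 had 3062 reads and 132 RPKM in red light, against 3431 reads and 121 RPKM in darkness, a ratio of 1.09 (1.04 to 1.15). AT4G17560, the least abundant of the 38 in red light, had 2046 reads and 90.02 RPKM in red light, against 2304 reads and 82.7 RPKM in darkness, a ratio of 1.09 (1.03 to 1.16). AT5G47190 made up 59.5% of the summed level in red light and 59.4% in darkness, so the balance of this pair differed little between columns, unlike that of PRPL12-A and PRPL12-C. The remaining large-subunit genes lay between these groups. PRPL21, PRPL24 and PRPL31 had ratios of 1.49, 1.39 and 1.36, PRPL6 and PRPL17 had 1.28 and 1.22, PRPL9 and PRPL28 had 1.204 and 1.19, and PRPL3 and PRPL13 had 1.10 and 1.08.

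The order of levels within the group was largely kept between conditions. The levels spanned 90.02 to 748 RPKM in red light and 81.0 to 672 RPKM in darkness, an 8.30-fold range in each. The median level was 267 RPKM in red light and 184 in darkness. Across the 38 genes, Spearman's rho between RPKM in red light and in darkness was 0.83, and 9 of the 10 most abundant genes were the same in both columns. The genes share the coding length and the libraries of each column, so this is a description. The SD of log2 RPKM over the 38 genes was 0.65 in red light and 0.77 in darkness. Of the 19 genes with the higher mean level, 3 reached 1.5-fold higher, against 7 of the 19 with the lower mean level, and rho between log2 change and mean RPKM was -0.22. The rho between log2 change and coding length was -0.46 over the same 38 genes. Their coding lengths ran from 321 bases in PSRP6 to 1251 in PRPS1, with a median of 603, against 1047 for all genes.

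Some genes share sequence or position with others. Besides the L12 pair, 3 of the 38 (both PRPL19 genes and PSRP3/1) had any 31-base word of coding sequence in common with another gene, at 0.637% to 2.01% of their words. PSRP3/1 has a relative, PSRP3/2 (AT5G15760), with 72.7% identical coding sequence. PSRP3/2 stood at 3.24 RPKM in red light and 2.997 in darkness, so PSRP3/1 made up 98.8% of their summed level in red light and 96.8% in darkness. In 7 of the 38, part of the coding sequence lies within the span of another annotated gene, and the sources used here do not say whether counting used the strand. The coding sequence of PRPS17 lies wholly within the span of GL2 on the opposite strand, which stood at 3.03 RPKM in red light and 3.496 in darkness. For PRPL10 the share was 61.2%, within AT5G13520 at 7.04 RPKM in red light and 9.54 in darkness. For PRPL28 it was 53.9%, within RIC1 at 0.309 RPKM in red light and 0.324 in darkness. For PSRP5 it was 40.0%, within AT3G56900 at 3.77 RPKM in red light and 5.72 in darkness. The shares were lower in PRPL18 (18.5%), PRPS20 (7.06%) and PRPL1 (4.03%). The neighbours of PRPS20 were AT3G15200, at 12.1 RPKM in red light and 8.71 in darkness, and AT3G15180, at 7.80 RPKM in red light and 9.46 in darkness. That of PRPL1 was TTA2, at 33.2 RPKM in red light and 56.5 in darkness, the highest of these neighbours. The neighbour of PRPL18 and the annotated noncoding RNAs at PRPS17, PRPL10, PSRP5, PRPS20 and PRPL1 were not analysed here.

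Short motifs were counted in the 300 bases from 250 before to 50 after each gene start, on both strands, for the 38 genes and for 26709 nuclear protein-coding genes. GATAA was in 32 of the 38 windows, or 84.2%, against 60.9% of all windows and 60.9% of those of 197 cytosolic ribosomal protein genes. TGGGC was in 20, or 52.6%, against 26.2% of all windows and 75.6% of the cytosolic ribosomal protein windows, and 15 of the 38 windows held both motifs. AACCCTA, the letters of the telo-box, was in 6, or 15.8%, against 8.74% of all windows and 52.8% of the cytosolic ones. CACGTG, the letters of the G-box, was in 4 of the 38, or 10.5%, against 7.79% of all windows and 5.08% of the cytosolic ones. CCACGT was in 3, or 7.89%, against 9.97% of all and 8.63% of the cytosolic windows, and it overlapped CACGTG in 1 window. The motif AACCG was in 8, or 21.1%, against 26.8% of all and 23.4% of the cytosolic windows. All 38 genes reached the minimum of 10 RPKM, as did the genes of 12464 of all windows. Of those 12464, 63.4% held GATAA, 30.8% TGGGC, 7.23% AACCCTA, 9.27% CACGTG, 11.6% CCACGT and 28.7% AACCG. The windows of the 38 genes had a median G and C content of 35.2%, against 32% for all genes, and a match is a description of the letters only. Genes with CACGTG had a median log2 change of 0.15, against 0.31 for those without it, and genes with GATAA had 0.31, against 0.13 for the 6 without. For TGGGC the medians were 0.23 with the motif and 0.36 without. They were 0.09 with and 0.31 without for AACCCTA, 0.38 and 0.23 for AACCG, and 0.36 and 0.28 for CCACGT. Some of these medians rest on few genes, such as the 3 with CCACGT.

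Other genes for plastid translation had a wider spread of changes around a similar median. The 11 translation factors listed had a median log2 change of 0.29 with an interquartile range of 1.83, against 0.48 for the ribosomal protein genes. Of these 11, 4 were called higher and none lower, where 8.69% and 5.35% of all genes tested were. AT4G11175, annotated as a nucleic acid-binding protein with an OB fold, had 116 RPKM in red light and 20.6 in darkness, a 5.64-fold rise (5.03 to 6.34). FUG1, the plastid initiation factor of the IF2 type, had 174 RPKM in red light and 47.7 in darkness, a 3.64-fold rise (3.54 to 3.75). SCO1, the plastid elongation factor G, had 273 RPKM in red light and 99.0 in darkness, a 2.75-fold rise (2.69 to 2.82). RABE1b, the plastid elongation factor Tu, had 739 RPKM in red light and 272 in darkness, a 2.72-fold rise (2.67 to 2.77). The coding sequence of RABE1b lies wholly within the span of other annotated genes. The lowest ratios were 0.591 for AT4G30690, of the initiation factor 3 type, at 36.6 RPKM in red light and 61.9 in darkness, and 0.628 for AT3G08740, of the elongation factor P family, at 65.1 RPKM in red light and 103.7 in darkness. With HCF109, a plastid peptide release factor at 25.9 RPKM in red light and 41.2 in darkness, 3 of the 11 were at least 1.5-fold lower. This was 27.3% of the list, against 15.3% of all genes tested. Summed over the 11 genes, the ratio of shares was 2.11 (2.09 to 2.13), against 1.18 for the ribosomal protein genes.

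Genes for plastid ribosome assembly and ribosomal RNA maturation also had a wider spread around a similar median. Of 12 listed, 10 reached the minimum level, with a median log2 change of 0.27 and an interquartile range of 1.05. Of these 10, 1 was called higher and none lower, and at 1.5-fold 4 were higher and 1 lower. Over all genes tested, the shares were 8.69% and 5.35% at 2-fold, and 15.1% and 15.3% at 1.5-fold. The called gene was AT1G45230, annotated as a DCL protein, at 71.1 RPKM in red light and 28.1 in darkness, a 2.53-fold rise (2.32 to 2.77). BPG2, a GTPase, stood at 8.95 RPKM in red light and 3.78 in darkness, under the minimum of 10 RPKM, at a ratio of 2.37 (2.06 to 2.73). The lowest were emb2738, a GTP-binding protein, with 30.9 RPKM in red light and 59.3 in darkness, a ratio of 0.522 (0.495 to 0.549), and RAP, which acts on plastid ribosomal RNA, with 8.35 RPKM in red light and 12.7 in darkness, a ratio of 0.657 (0.592 to 0.729). Of the RAP coding sequence, 29.4% lies within the span of other annotated genes.

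**Figure D4:**
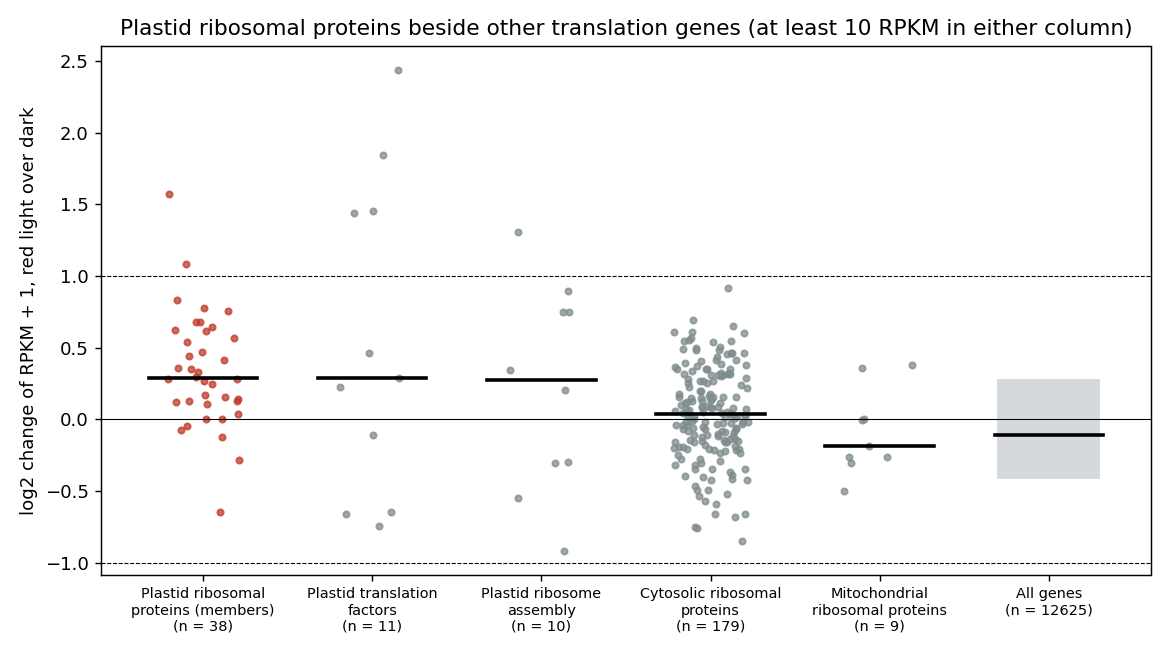
Log2 change of RPKM + 1, red light over dark, for genes of at least 10 RPKM in either column: plastid ribosomal proteins (n = 38), plastid translation factors (n = 11), plastid ribosome assembly (n = 10), cytosolic (n = 179) and mitochondrial (n = 9) ribosomal proteins, with 1 point per gene and a bar at each median; the box for all 12625 genes spans the middle quartiles. The plastid lists have medians of 0.27 to 0.29, the cytosolic list 0.03 and the mitochondrial list -0.19.

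The ribosomal proteins of the other compartments had lower medians. Interquartile ranges of the log2 change were 0.43 for cytosolic genes and 0.27 for mitochondrial genes, the latter from 9 genes. The range was 0.48 for the 38, and 0.43 for them without PSRP3/1 and PSRP6. Of 197 cytosolic ribosomal protein genes, 179 reached the minimum level, none was called, 98 (54.7%) had ratios above 1, and the median log2 change was 0.03. At 1.5-fold 6 of the 179 (3.35%) were higher and 7 (3.91%) lower, against 15.1% and 15.3% of all genes tested. The ratio of summed shares was 0.982 (0.978 to 0.985). The highest were AT3G10610, of the S17 family, at 78.8 RPKM in red light and 41.2 in darkness, and AT2G32220, of the L27e family, at 22.4 RPKM in red light and 13.5 in darkness. The lowest were AT5G02440, annotated as L36, at 11.3 RPKM in red light and 21.2 in darkness, and AT3G08520, of the L41 family, at 70.8 RPKM in red light and 120.7 in darkness. For AT3G08520, 81.25% of the 31-base coding words occur in another gene, so its reads cannot be assigned with certainty. Of 13 genes annotated as mitochondrial ribosomal proteins, 9 reached the minimum level, none was called, 3 had ratios above 1, and the median log2 change was -0.19. Their highest ratios were 1.33 for AT5G39800 and 1.32 for AT5G40080, both annotated as L27, and their lowest were 0.690 for AT1G16870 and 0.804 for RPS2. In each of the L27 genes, 36.5% of the 31-base coding words occur in another gene.

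The partners of these proteins encoded in the plastid itself could be seen only as a group, because their identifiers are not paired with names. Of 88 plastid-encoded gene models, ribosomal or not, 86 reached the minimum level and none was called. Their median log2 change was -0.27, and 15 of the 86 had ratios above 1. They held 1.87% of the reads in red light and 2.13% in darkness. The libraries were made from poly(A)-selected RNA, whose share of plastid transcripts need not follow their abundance; its part in these values was not tested.

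A relative outside the 38 was the 1 gene called lower in the lists described here. AT5G24490, annotated as a 30S ribosomal protein, fell to 51.4 RPKM (1596 reads) in red light, against 345 RPKM (13159 reads) in darkness. Its ratio was 0.149 (0.141 to 0.157), a 6.72-fold fall. In darkness its level was above that of most of the 38 plastid ribosomal protein genes, whose median was 184 RPKM, and in red light it was below all of them.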

How the data were processed

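Poly(A) RNA of Arabidopsis seedlings was sequenced in 4 samples, 2 in red light and 2 in darkness. The authors deposited estimated counts of reads per gene model, not normalized, and RPKM made from them, 1 column of each per condition and 27416 gene models, per the file headers. The submitters' processing notes name the TAIR10 build. The sources used here do not give the aligner, the counting program, how reads matching more than 1 gene were treated, or whether a column pools both replicates. The deposited value was 0.5 for genes without reads (4164 in red light, 4059 in darkness), which was set to 0. The deposited RPKM values use coding length, so untranslated regions do not enter it. RPKM was recomputed from the reads.

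The 38 genes and all lists were chosen with earlier results of these data known. A test with edgeR on 4 samples, as designed, was not possible with 1 column per condition, so genes were called by size (2-fold on RPKM + 1, with 10 RPKM or more in the higher column). Log2 changes include the added 1. Intervals cover counting error only. The median was 242.5 reads per gene in red light and 287 in darkness, and the 38 genes had at least 2046 reads in red light and 1753 in darkness. Full values were given for called genes, the 8 highest and 8 lowest changes, the 3 most abundant of each class, all PSRP genes and the L12 and L19 copies. From other lists, the 2 largest and 2 smallest changes were named. PRPL11, PRPL18, PRPS1, SCO1, RABE1b and HCF109 were named in more detail after their values were seen, as were the neighbouring genes on other strands.

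Names, positions and sequences came from the RefSeq annotation and genome of TAIR10.1, which matched 26710 loci; the coding lengths of all 38 genes were equal to those in the files. From the assembly list, 1 locus was not in this annotation and 1 was dropped because its description did not match the list. Lists of cytosolic and mitochondrial ribosomal proteins follow the annotation's descriptions. Motif windows were read from the genome on both strands. Alternatives used DESeq2 1.42.0 size factors, TMM and upper-quartile factors of edgeR 4.0.16, totals without organelle or photosynthesis genes, other minimum levels, a pseudocount of 0.1 and other thresholds. The calling rule was also run on simulated reads with counting error alone, and the outcome is not reported here. Those reads held no variation between seedlings or libraries and no true change near 2-fold, so they do not bear on the calls above. Software was Biopython 1.88, scipy 1.17.1, pandas 2.3.3, numpy 2.4.6 and matplotlib 3.10.9 in Python 3.11.15, and R 4.3.3.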

Additional observations from a re-analysis of the deposited data

How the results depend on the processing

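PSRP3/1 and PSRP6 were the called genes under every scaling and pseudocount tried. The minimum levels tried all lay below the levels of the 38 genes, and neither gene of the L12 pair was called. Changing the minimum or leaving out that pair therefore could not alter the calls. At 3-fold 0 of the 38 were called, and at 1.5-fold 10 were higher and 1 lower. Over all genes, 1097 were higher and 676 lower at 2-fold, 1910 and 1934 at 1.5-fold, and 589 and 230 at 3-fold. The median log2 change of the 38 was 0.29 and became 0.36 with TMM factors, 0.35 with DESeq2 size factors and 0.36 without photosynthesis genes in the totals. The ratio of summed reads was 1.18 and became 1.23 with TMM factors, 1.23 with DESeq2 size factors, 1.19 with upper-quartile factors, 1.24 without photosynthesis genes and 1.17 without the L12 pair. The medians of the PRPS and PSRP genes moved under the same 3 scalings, which shifted all log2 changes by up to 0.07. Of 108 recomputed values, 87 were the same within the rule used, 21 moved and 0 reversed. Many of the 87 could not change. The minimum levels tried cannot alter values of the 38, and fold thresholds cannot alter medians or the summed ratio. Leaving out the L12 pair cannot alter the counts over all genes or the PRPS and PSRP medians. The ratio of PRPS9 crossed 1 under those 3 scalings, and those of PRPL15 and PRPL1 crossed 1 without organelle genes in the totals. No paired analysis was possible because each condition has 1 column with no replicate number; leaving out a replicate was not possible for the same reason. Spread between replicates could not be estimated, so a difference between seedling batches and a difference between light conditions cannot be told apart.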
